A study of Mus musculus with 16 samples.

Results

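The genes described here are 8 Krüppel-like factors (KLFs) that mouse pluripotent cells can express: Klf2, Klf3, Klf4, Klf5, Klf6, Klf7, Klf9 and Klf10. They were chosen by symbol, matched to the Ensembl gene IDs of the deposited table, and are 8 of its 52636 IDs; a further 18 KLF and SP family genes were read only for comparison. RNA was measured after ribosomal RNA depletion in 16 libraries of the mouse line CRAFR26, which carries a kinase construct of c-RAF that 4-hydroxytamoxifen switches on and that activates ERK through MEK. The labels call the cell type RSC. All 4 groups were kept in N2B27 medium with 2 µM IWP2, a blocker of Wnt secretion, 1000 U/ml of LIF and 1 µM of the MEK inhibitor PD0325901, and for 48 h before the experiment the FGF receptor inhibitor PD173074 at 250 nM stood in place of PD0325901. The group 0h received no tamoxifen, 2h and 4h had 2 h and 4 h of tamoxifen at 250 nM, and in the group rev 4 h of tamoxifen were combined with 2 h of a MEK inhibitor, whose dose at that step the labels do not give. Each group held 4 libraries, 2 from clone 4 and 2 from clone 8. Nothing in the labels says that the 2 libraries of a clone and group came from separate cultures, so p-values measure the spread between these libraries, which may be partly technical. The samples do not include tamoxifen for 6 h without the inhibitor, and a change between 4h and rev therefore also spans additional culture time.

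KLFs are transcription factors with a carboxy-terminal zinc finger domain that binds GC boxes and CACCC elements. Klf2, Klf4 and Klf5 are known in mouse embryonic stem cells as overlapping supporters of the naive state, with Klf4 a target of LIF and STAT3 and one of the classical reprogramming factors. Klf3 recruits the corepressor CtBP, Klf9 and Klf10 recruit the corepressor Sin3A, and Klf6 and Klf7 form a related pair of activators. ERK is known both to phosphorylate KLF proteins and to change transcription of their genes; only RNA was measured here. The comparisons ask which KLF genes rose and which fell with ERK, whether the inhibitor turned the change round, and whether both clones did the same.

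The libraries held 4.31 to 10.4 M counts (median 8.03 M), of which 8 features each above 1% of all counts took 46.7% to 78.9%, leaving 1.30 to 5.46 M elsewhere. Replicate 1 of clone 8 at rev stood apart, with the 78.9% share, the 1.30 M and the lowest scaling factor (0.537), and the calls of the KLF genes and of the gene lists at rev were also made without it. On principal components of the 500 most variable genes, the first (51% of the variance) separated the clones. It put clone 4 libraries at 3.03 to 30.1 and clone 8 libraries at -21.8 to -12.4. The third (8.57% of the variance) put all 0h and 4h libraries at 3.56 to 11 and all 2h and rev libraries at -12.1 to -3.27. The labels name no batch, and each side of the third component holds whole groups. A part of this split in the comparisons that cross it cannot be told apart from the treatment. Of 7 pluripotency markers all were expressed (in CPM, counts scaled to library size: Pou5f1 120 to 175 CPM, Sox2 201 to 241 CPM, Nanog 111 to 722 CPM), and their summed level was 1232 to 1575 CPM at 0h, 1395 to 1701 at 2h, 938 to 1558 at 4h and 1462 to 1764 at rev. Several defining markers of other cells were at or near 0: in no library did Gata6, Sox17 and Foxa2 of primitive endoderm exceed 10, 9 and 2 counts, Cdx2 and Elf5 of trophoblast 7 and 4, T, Mixl1 and Kdr of mesoderm 13, 13 and 23, and Col1a1, Col1a2 and Thy1 of fibroblasts 18, 2 and 13. Others were present, with up to 16.7 CPM of Gata3 and 7 CPM of Eomes (trophoblast), 21.7 CPM of Pax6 and 30.2 to 43.4 CPM of Nes (neural), 4.17 CPM of Gata4 and 220 CPM of Vim. The 4h libraries of clone 4 (replicates 1 and 2) stood out from the other 14 in several summed levels. Their fibroblast sum, almost all Vim, was 223 and 159 CPM against 39.6 to 66.5 in the others, their trophoblast sum 25.2 and 22.6 against 5.89 to 19.7, their neural sum 65.9 and 58.9 against 36.5 to 49.6 and their mesoderm sum 3.20 and 4.32 against 0.259 to 3.03. Rosette and formative markers summed to 93.1 and 67.3 CPM against 23.9 to 70.5, primitive endoderm markers to 4.13 and 3.81 against 2.81 to 5.24, and pluripotency markers to 938 and 1165, below all others (from 1232). Pax6 (2.37), Pou3f1 (1.43), Vim (1.32) and Eomes (1.24) were called higher at 4h than at 0h by edgeR, as log2 changes; the part of these markers in the results at 4h was not tested. As a check of the induction, 9 of 11 tested immediate-early and feedback genes of ERK were higher at 2h than at 0h. At 4h 9 were higher, with Egr1, Spry4 and Dusp6 among them at both times. Of all tested genes, 9.49% were higher at 2h and 7.35% at 4h.

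The promoters of Klf2, Klf3 and Klf4 are shown because these genes moved together between 4h and rev and because their GC boxes are the kind of element that KLF proteins bind. The sequences are RefSeq's, on GRCm38.p6, each on the strand of its gene, running 5′ to 3′ and cut before the first annotated transcribed base. The Klf2 stretch is chr8:72318812-72319032 on the plus strand, that of Klf3 chr5:64803271-64803387 on the plus strand, and that of Klf4 chr4:55532476-55532725 on the minus strand. Capitals mark the GC box GGGCGG and the element CACCC on either strand.
Klf2: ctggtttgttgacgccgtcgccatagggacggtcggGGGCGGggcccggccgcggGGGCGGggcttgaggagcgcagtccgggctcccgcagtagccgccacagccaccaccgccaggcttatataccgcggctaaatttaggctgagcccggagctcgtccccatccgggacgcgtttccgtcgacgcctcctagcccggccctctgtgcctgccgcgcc
Klf3: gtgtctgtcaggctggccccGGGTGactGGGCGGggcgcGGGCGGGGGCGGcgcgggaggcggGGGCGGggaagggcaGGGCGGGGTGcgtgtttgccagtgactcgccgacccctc
Klf4: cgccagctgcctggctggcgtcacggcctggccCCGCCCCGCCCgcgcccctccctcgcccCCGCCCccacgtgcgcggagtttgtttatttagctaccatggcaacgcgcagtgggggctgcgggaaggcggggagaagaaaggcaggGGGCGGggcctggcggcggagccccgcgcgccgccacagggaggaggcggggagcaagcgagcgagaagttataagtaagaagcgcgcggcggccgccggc
Over the full 250 bases before the RefSeq start, Klf3 held 6 GC boxes and 5 CACCC elements, Klf4 held 4 GC boxes and no CACCC element, and Klf2 held 2 GC boxes and 1 CACCC element. A GC box occurred in 32.7% and a CACCC element in 52% of the 32851 windows of the same length in the table. The 3 windows were 71.2% (Klf2), 78.4% (Klf3) and 74% (Klf4) G and C against a mean of 53.2% over all windows. The Klf2 window also held a match to the motif of MEF2, a target of MAP kinase signalling, at -118 to -109, which 2.92% of windows hold; this motif was added to the search after the sequence had been read. Windows of Klf6, Klf7 and Klf9 were searched as well. Klf9, also called higher at rev against 4h, held 0 GC boxes and 1 CACCC element. Klf6 held 1 GC box, and Klf7 held 1 GC box and 3 CACCC elements, and neither was called at rev against 4h. The part of these elements in the changes was not tested. No window was available for Klf5 or Klf10, so neither gene was searched. Klf9 held an AP-1 match (TGANTCA, in 6.75% of windows, 1 end of it shared with a CACCC match) and a STAT match (TTCNNNGAA, in 7.02%). No CArG box, no CRE (TGACGTCA, in 1.55%) and no ETS match (CCGGAA, in 12%) lay in any of the 6 windows, and these matches are letters in a window, not measured sites.

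Levels of the 8 genes at 0h spanned a wide range when set per kilobase of annotated exon, the scale on which genes can be compared. Klf2 stood first at 83.9 ± 3.47 CPM per kb (SD, n = 4), followed by Klf4 at 27.8 ± 8.62, Klf9 at 19.6 ± 2.18 and Klf5 at 13.6 ± 2.62. Klf10 had 7.07 ± 1.59, Klf6 had 5.46 ± 0.849 and Klf3 had 4.60 ± 0.549 CPM per kb, and Klf7 was last at 0.340 ± 0.0347. Neighbours in this order overlapped over the 4 libraries for Klf4 with Klf9, Klf10 with Klf6 and Klf6 with Klf3, and the other neighbours did not overlap. The middle of the order depends on the gene model: per length of the longest transcript, Klf3 moved from the seventh to the fifth place, Klf5 and Klf9 changed places at 21.2 and 21.1 CPM per kb, and only Klf2, Klf4 and Klf7 kept theirs. At 4h Klf2 had a mean of 62.8 and Klf5 of 28.4 CPM per kb of annotated exon, with Klf4 (18.7) and Klf9 (18.6) next and close to each other; the mean of Klf4 spans both clones, which differed at that time as given below.

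**Figure D1:**
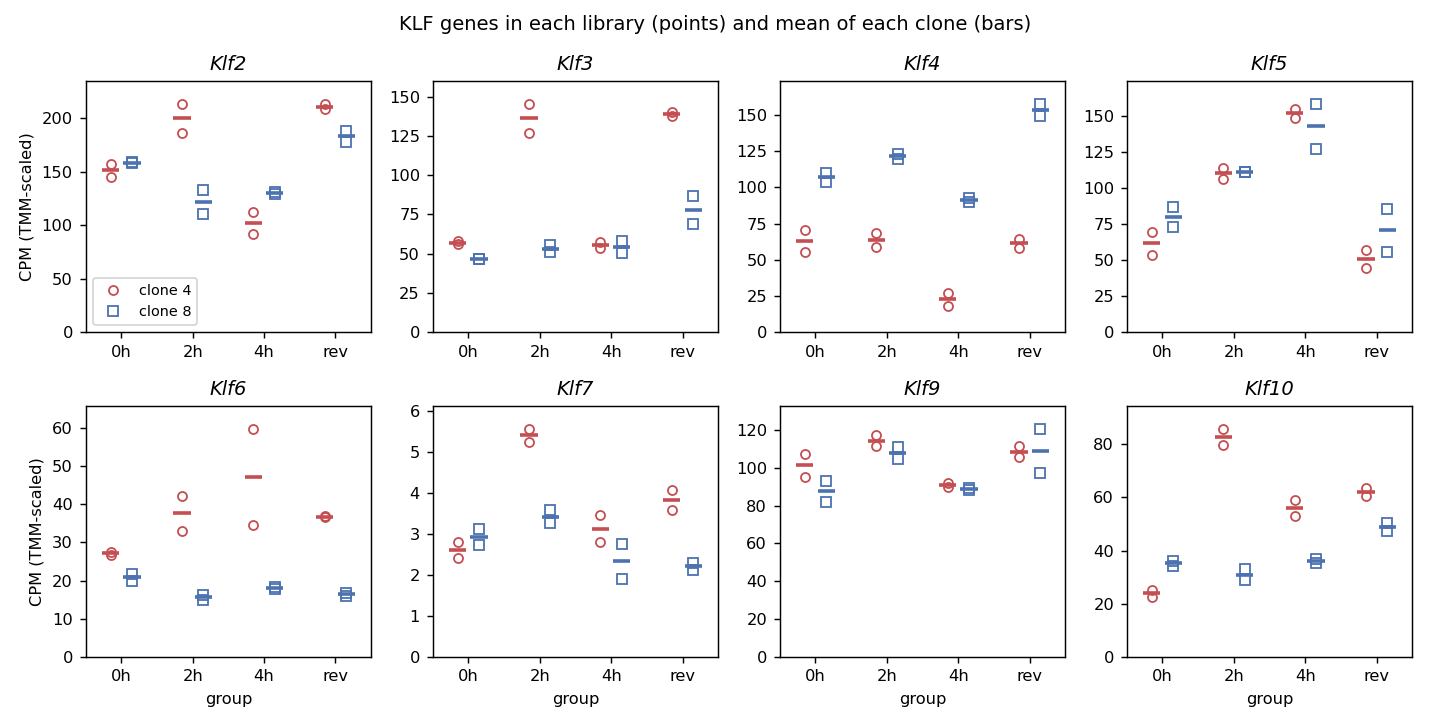
TMM-scaled CPM (counts scaled to library size) of each KLF gene on a linear axis from 0, by group; circles are libraries of clone 4, squares libraries of clone 8, and bars the mean of each clone. Klf5 was highest at 4h in both clones, whereas Klf4 at 4h was 18.0 and 27.2 CPM in clone 4 and 92.5 and 90.2 CPM in clone 8.

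All 8 genes passed the filter on low counts and entered the test over 12742 genes. By edgeR's quasi-likelihood test with Benjamini-Hochberg adjustment over all tested genes, 3 of 8 KLF genes were higher at 2h than at 0h, where 9.49% of all tested genes were higher, and 0 were lower, where 7.48% were. At an unadjusted p under 0.05 the counts were 5 and 0. At 4h against 0h, 1 was higher (7.35% of all) and 1 lower (5.56%). At 4h against 2h, 0 were higher (5.78%) and 4 lower (6.36%); 1 was higher at an unadjusted p under 0.05, and that gene, Klf5, was called by DESeq2. At rev against 4h, 4 were higher (4.5%) and 1 lower (5.1%), and at rev against 0h 2 were higher (5.51%) and 0 lower (4.94%, and 0 at an unadjusted p under 0.05). At rev against 2h, 0 were higher (0.769%, and 0 at an unadjusted p under 0.05) and 1 was lower (1.01%). DESeq2 called 0 members in the directions given here as 0 except Klf5 at 4h against 2h. The median log2 change of the 8 genes was 0.42, 0.02, -0.37, 0.28, 0.23 and 0.04 in these 6 comparisons, beside medians of all tested genes between -0.01 and 0.00. Comparisons that share a group, such as those at 2h, 4h and rev against 0h, share its libraries and are not independent of each other. In bulk RNA, a change in the share of cells that express a gene and a change in RNA per cell cannot be told apart.

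Counting only genes whose 4 libraries lay wholly above or below the other 4, 2 KLF genes were above at 2h against 0h (8.59% of all genes) and 0 below (7.68%), and at rev against 4h 3 were above (4.29%) and 1 below (4.58%). At 4h against 0h and at 4h against 2h, 1 was above (7.37% and 5.72%) and 1 below (6.18% and 5.4%). At rev against 0h 3 were above (6.19%) and 0 below (5.68%), and at rev against 2h 0 were above (3.01%) and 1 below (3.35%). Where groups are compared within 1 clone below, 2 libraries stand against 2. The share of all genes separated in that way was not computed.

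**Figure D2:**
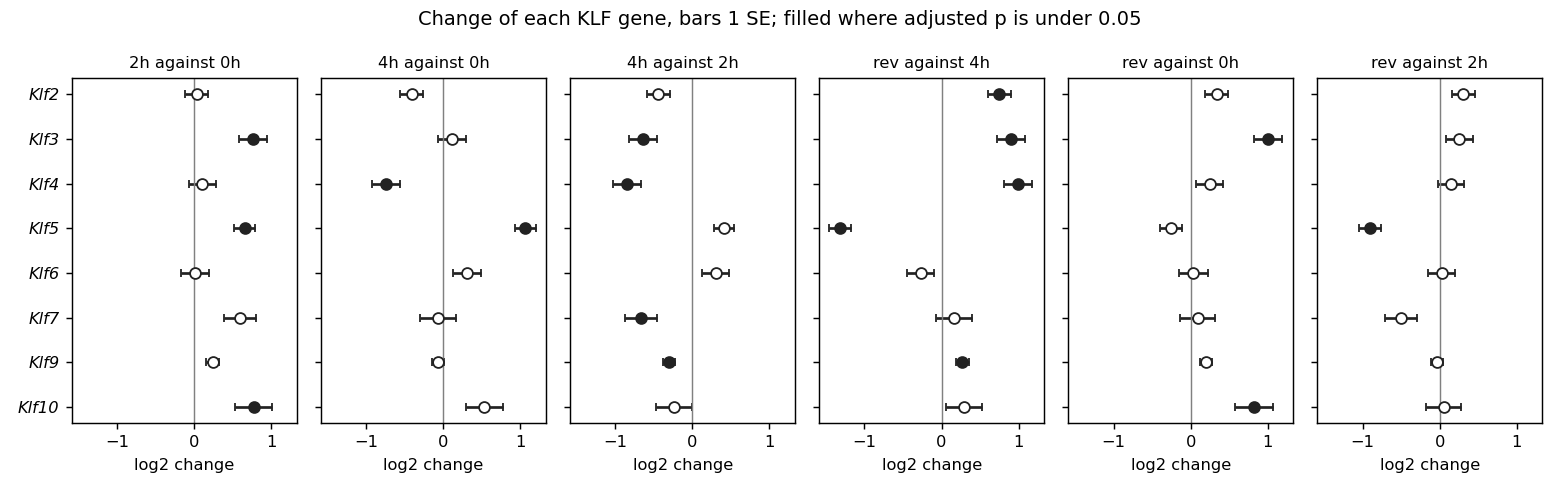
Log2 change of each KLF gene in 6 comparisons from edgeR's fit over 16 libraries, with bars of 1 SE; filled points have an adjusted p under 0.05. Klf5 was higher at 2h and 4h and lower at rev against 4h (log2 change -1.32), and Klf2, Klf3 and Klf4 were higher at rev against 4h (0.75, 0.90 and 1.00).

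Klf5 (ENSMUSG00000005148, chromosome 14, 99298691 to 99315036, plus strand, GENCODE M21 on GRCm38) was called higher than 0h at 2h and 4h in each clone. No other KLF gene was called higher at 4h in both clones fitted alone. At 2h the libraries of Klf3, Klf7 and Klf9 also lay above those of 0h within each clone. The level of Klf5 at 0h was 69.5 and 54.0 CPM in clone 4 and 73.3 and 87.1 CPM in clone 8. At 2h it was 107 and 114 CPM in clone 4 and 111.5 and 111.3 CPM in clone 8, and at 4h 149 and 155 CPM in clone 4 and 127 and 159 CPM in clone 8. All 2h libraries lay above all 0h libraries, and all 4h libraries above all 2h libraries. Klf5 rose at 2h by 0.65 on the log2 scale (SE 0.137; adjusted p by edgeR 0.00339) and at 4h against 0h by 1.06 (SE 0.138, adjusted p 4.88e-05), a 2.09-fold increase. The step from 2h to 4h, a log2 change of 0.41, had an edgeR adjusted p of 0.0505.

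At rev, Klf5 was back near its starting level, with 56.8 and 44.8 CPM in clone 4 and 85.7 and 55.6 CPM in clone 8. Every rev library lay below every 4h and every 2h library and the range overlapped that at 0h. The fall from 4h to rev had a log2 change of -1.32 (SE 0.14; adjusted p by edgeR 8.46e-06) and that against 2h was -0.91 (adjusted p 0.00104; -1.06 without replicate 1 of clone 8 at rev). Against 0h the difference was -0.25 (adjusted p 0.274); without replicate 1 of clone 8 at rev, in which Klf5 was highest of the 4, it was -0.42 (adjusted p 0.0432), and the fall from 4h was -1.47. The calls for Klf5 at 2h and 4h against 0h and at rev against 4h and 2h held in all 12 alternatives and with each of the 16 libraries left out.

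Klf4 (ENSMUSG00000003032, chromosome 4, 55527143 to 55532466, minus strand), the reprogramming factor, was the 1 gene of the 8 called lower at 4h than at 0h. It stood at 70.3 and 55.3 CPM in clone 4 and 110.1 and 104 CPM in clone 8 at 0h, and at 58.5 and 68.6 CPM in clone 4 and 123 and 119.9 CPM in clone 8 at 2h. At 4h the 4 values were 18.0 and 27.2 CPM in clone 4 and 92.5 and 90.2 CPM in clone 8. Within each clone both 4h libraries lay below both 0h and both 2h libraries, while over all 4 libraries the groups overlapped, clone 8 being higher in every group. The log2 change of Klf4 at 2h was 0.10 (adjusted p 0.742), at 4h against 0h -0.75 (SE 0.183, edgeR adjusted p 0.0103) and at 4h against 2h -0.85 (SE 0.181, adjusted p 0.0059). The fall against 0h was -0.56 with no clone covariate (adjusted p 0.564) and -0.23 in clone 8 alone (adjusted p 0.15), and neither passed the threshold; without replicate 1 of clone 4 at 4h it was -0.53.

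After the inhibitor, Klf4 was 58.3 and 64.4 CPM in clone 4 and 158 and 149 CPM in clone 8. These are above the 4h values in each clone, close to the 0h values in clone 4 and above them in clone 8. The rise from 4h to rev was 1.00 on the log2 scale (SE 0.181; adjusted p by edgeR 0.00154), and 0.97 without replicate 1 of clone 8 at rev (adjusted p 0.00471). With no clone covariate the adjusted p was 0.356. In clone 8 alone, Klf4 was also higher at rev than at 0h, by 0.52 (adjusted p 0.00105), and in clone 4 alone the difference was -0.02 (adjusted p 0.933); the difference between clones missed the threshold (0.54, adjusted p 0.0581).

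Klf2 (ENSMUSG00000055148, chromosome 8, 72319033 to 72321656, plus strand), the other naive-state factor that ERK is known to act on, had 158, 145, 159 and 158 CPM at 0h in clone 4 and then clone 8. At 4h it had 91.3 and 112 CPM in clone 4 and 129 and 131 CPM in clone 8, and at rev 213 and 208 CPM in clone 4 and 188 and 178 CPM in clone 8. All 4h libraries lay below all 0h libraries, and all rev libraries above both. The log2 change at 4h against 0h was -0.41 (SE 0.15, edgeR adjusted p 0.0769), which did not pass; in clone 4 alone it was -0.59 (adjusted p 0.000642), which passed, and in clone 8 alone -0.28 (adjusted p 0.0899). From 4h to rev Klf2 rose by 0.75 (SE 0.15, adjusted p 0.00339), and by the same 0.75 without replicate 1 of clone 8 at rev. That rise was 0.53 with library totals as scaling (adjusted p 0.247). At rev against 0h the log2 change was 0.34 (adjusted p 0.15), and it was 0.34 without that library as well (adjusted p 0.196).

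At 2h the clones went opposite ways in Klf2. Clone 4 had 186 and 213 CPM, above its 0h values, and clone 8 had 133 and 111 CPM, below its 0h values. Fitted alone, clone 4 rose by a log2 change of 0.39 (edgeR adjusted p 0.0157) and clone 8 fell by 0.38 (adjusted p 0.00896). The log2 change in the fit over both clones was 0.03 (adjusted p 0.914).

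Klf3 (ENSMUSG00000029178, chromosome 5, 64803388 to 64832901, plus strand), a CtBP-recruiting repressor, was highest at 2h and rev in clone 4. In clone 8 it was highest at rev. The third principal component also set 2h and rev apart from 0h and 4h, and its part cannot be told apart from the treatment. The 0h libraries had 56.1 and 57.9 CPM in clone 4 and 46.4 and 46.4 CPM in clone 8, and the 4h libraries 53.9 and 57.1 CPM in clone 4 and 50.5 and 57.7 CPM in clone 8. At 2h it had 127 and 145 CPM in clone 4 but 51.0 and 55.5 CPM in clone 8, and at rev 138 and 140.2 CPM in clone 4 and 86.9 and 69.0 CPM in clone 8. The rev libraries all lay above the 0h and 4h libraries, and at 2h only the clone 4 libraries were clear of all 0h and 4h libraries. The log2 change was 0.76 at 2h (SE 0.182, edgeR adjusted p 0.00786), 0.11 at 4h against 0h (adjusted p 0.76) and 0.90 at rev against 4h (SE 0.184, adjusted p 0.00377). At rev against 0h Klf3 was 2.01-fold higher (log2 change 1.01, adjusted p 0.00192; 0.99 and 0.00502 without replicate 1 of clone 8). The rise from 4h to rev was 0.88 without that library and 0.68 with library totals as scaling (adjusted p 0.0947). The rise at 2h was 0.20 in clone 8 alone (adjusted p 0.226), and the fall from 2h to 4h of -0.65 (adjusted p 0.0268) was 0.02 in clone 8 alone. The call of that fall was also lost with library totals (-0.73, adjusted p 0.0688) and with only the 2 groups compared (adjusted p 0.0841). It was lost as well without any 1 clone 4 library at 2h or 4h. Of the exon length, 3.59% is shared with a gene on the opposite strand.

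Klf9 (ENSMUSG00000033863, chromosome 19, 23141226 to 23168134, plus strand), a gene known for its induction by glucocorticoid and thyroid hormone, stayed within a narrow range. Its levels were 107.5, 95.3, 93.1 and 81.9 CPM at 0h, 111.4, 117, 111.1 and 104 CPM at 2h, 89.7, 91.9, 89.4 and 88.1 CPM at 4h and 106, 111, 121 and 97.5 CPM at rev, in each group clone 4 before clone 8. The 4h libraries lay below all 2h and all rev libraries and inside the 0h range. Klf9 fell from 2h to 4h by 0.31 in log2 terms (SE 0.0813; adjusted p by edgeR 0.0203) and rose from 4h to rev by 0.27 (SE 0.0822, adjusted p 0.0424). Both calls were lost with library totals as scaling (-0.44 with adjusted p 0.372, and 0.04 with adjusted p 0.951), and the second also without replicate 1 of clone 8 at rev (0.20, adjusted p 0.108) and in 10 other leave-one-out fits. The change of Klf9 at 2h was 0.24 (adjusted p 0.0501).

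Klf10 (ENSMUSG00000037465, chromosome 15, 38291463 to 38300706, minus strand), known as a TGF-beta-inducible early gene, was higher at 2h and 4h in clone 4, with no call in clone 8 at these times. Clone 4 had 25.2 and 22.6 CPM at 0h, 79.7 and 86.0 at 2h, 52.9 and 58.9 at 4h and 60.7 and 63.5 at rev. Clone 8 had 36.0 and 34.3 CPM at 0h, 28.9 and 32.9 at 2h, 35.4 and 36.8 at 4h and 50.6 and 47.5 at rev. In clone 4 every later library was above 0h; in clone 8 the 2h libraries were below 0h and only rev was clear above it. Over both clones Klf10 rose by 0.77 at 2h (SE 0.239, edgeR adjusted p 0.0317) and by 0.82 at rev against 0h (SE 0.241, adjusted p 0.0339). The 2h call was lost in clone 8 alone (-0.19, adjusted p 0.209), with DESeq2 (adjusted p 0.0506) and with the replicate block (adjusted p 0.0545). It was also lost without any 1 of the 4 clone 4 libraries at 0h and 2h. The call at rev was lost with the block (adjusted p 0.0597), with library totals (0.60, adjusted p 0.152) and with no clone covariate (adjusted p 0.123). It was kept in 10 of 16 leave-one-out fits. It was lost without any 1 rev library and without either clone 4 library at 0h. Without replicate 1 of clone 8 at rev it was 0.78 (adjusted p 0.0649).

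Klf6 (ENSMUSG00000000078, chromosome 13, 5861482 to 5870394, plus strand), known in growth arrest and tissue injury, was called in no comparison over both clones. Clone 4 had 26.8 and 27.4 CPM at 0h, 33.1 and 42.2 at 2h, 59.9 and 34.5 at 4h and 36.9 and 36.6 at rev. Clone 8 had 21.8 and 19.8 CPM at 0h, 16.2 and 15 at 2h, 17.9 and 18.2 at 4h and 16.05 and 16.6 at rev. All later clone 4 libraries were above those of 0h and all later clone 8 libraries below. In clone 4 alone the log2 change of Klf6 at 4h was 0.84 (edgeR adjusted p 0.00107), and replicate 1, at 59.9 CPM, was far above replicate 2. In clone 8 alone Klf6 fell by 0.43 at 2h (adjusted p 0.0141).

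Klf7 (ENSMUSG00000025959, chromosome 1, 64029447 to 64122282, minus strand), known for its role in axon growth of neurons, was scarcely expressed, with 7 to 51 counts per library. Its values in CPM were 2.80, 2.43, 3.11 and 2.73 at 0h and 5.58, 5.25, 3.27 and 3.58 at 2h, clone 4 first. They were 3.47, 2.79, 1.91 and 2.76 at 4h and 4.07, 3.59, 2.12 and 2.30 at rev. All 2h libraries lay above the 0h libraries, with a log2 change of 0.60 (SE 0.209) that missed the threshold (edgeR adjusted p 0.0547). The fall from 2h to 4h of 0.67 (adjusted p 0.0451) was lost in 9 of the 11 alternatives that could be fitted and in 11 of 16 leave-one-out fits. Of its exon length, 39.4% is shared with genes on the opposite strand, and whether counting used strand is not given in the sources used here, so counts of Klf7 are uncertain.

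The next question was whether the clones responded alike, tested as the change in clone 8 minus the change in clone 4. By edgeR's quasi-likelihood test, 4 of 8 KLF genes differed between clones in the change at 2h against 0h, where 7.94% of all tested genes differed. The counts were 3 at 4h against 0h (5.72%), 4 at 4h against 2h (14.8%), 3 at rev against 4h (13.2%) and 2 at rev against 0h (5.25%). The largest difference was that of Klf10 at 2h, -1.99 on the log2 scale (SE 0.16, adjusted p 4.31e-10): the gene rose 3.46-fold in clone 4, and in clone 8 its log2 change was -0.19 (adjusted p 0.209). Klf3, Klf6 and Klf2 also differed at 2h, with lower changes in clone 8, by -1.05, -0.89 and -0.78 (adjusted p 4.36e-05, 0.0128 and 0.00111). At 4h the fall of Klf4 was larger in clone 4, by 1.30 (SE 0.19, adjusted p 1.9e-05): 2.90-fold there against 1.17-fold in clone 8. The differences of Klf6 and Klf10 at 4h were -1.06 and -1.19 (adjusted p 0.00348 and 1.03e-05), with log2 changes in clone 8 alone of -0.21 and 0.03, and that of Klf6 was -0.56 without replicate 1 of clone 4 at 4h (adjusted p 0.268).

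Between 4h and rev, Klf2, Klf3 and Klf4 rose in both clones and rose less in clone 8. Their log2 changes were 1.07, 1.34 and 1.51 in clone 4 and 0.49, 0.50 and 0.74 in clone 8, with differences of -0.57, -0.82 and -0.76 (edgeR adjusted p 0.0127, 0.000601 and 0.00584). Without replicate 1 of clone 4 at 4h, the differences of Klf2 and Klf4 were -0.42 (adjusted p 0.163) and -0.43 (adjusted p 0.248); without replicate 1 of clone 8 at rev all 3 stayed past the threshold, at -0.60, -0.96 and -0.79. Without replicate 2 of clone 8 at rev, the difference of Klf2 was -0.53 (adjusted p 0.0503). The differences at rev against 0h were -0.56 for Klf3 (edgeR adjusted p 0.0337) and -0.92 for Klf10 (adjusted p 0.000605). Without replicate 1 of clone 8 at rev they were -0.70 and -0.95. The call of Klf3 was lost with DESeq2 (-0.55, adjusted p 0.0632) and with library totals (-0.93, adjusted p 0.253). It was kept in 9 of 16 leave-one-out fits. Klf5 had log2 changes of one sign in both clones in all 6 comparisons. They were 1.30 in clone 4 and 0.83 in clone 8 at 4h against 0h, a difference of -0.47 that did not pass (adjusted p 0.207). For Klf9 the largest difference among the 5 was 0.20 (SE 0.152).

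At 0h itself the clones differed in 2 of 8 KLF genes, where 11.7% of all tested genes did: Klf4 was higher in clone 8 by 0.78 (SE 0.123, edgeR adjusted p 2.77e-05) and Klf10 by 0.57 (SE 0.124, adjusted p 0.00169). The ERK genes moved with the clones as well. In 8 of 11 the rise at 4h was smaller in clone 8, by -2.60 for Dusp6 and -2.97 for Spry4, and in 4 of 11 at 2h. Of all tested genes, 5.72% differed between clones at 4h and 7.94% at 2h, in either direction. The part of the ERK genes in the differences of the KLF genes was not tested. The marker sums in which the 4h libraries of clone 4 stood out are given above, and their part was not tested either. With library totals as scaling, 4 of the 5 sets of clone differences lost members: only Klf10 at 2h, Klf4 at 4h and Klf2, Klf3 and Klf4 at rev against 4h remained called, and 0 of the 2 differences at 0h did.

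**Figure D3:**
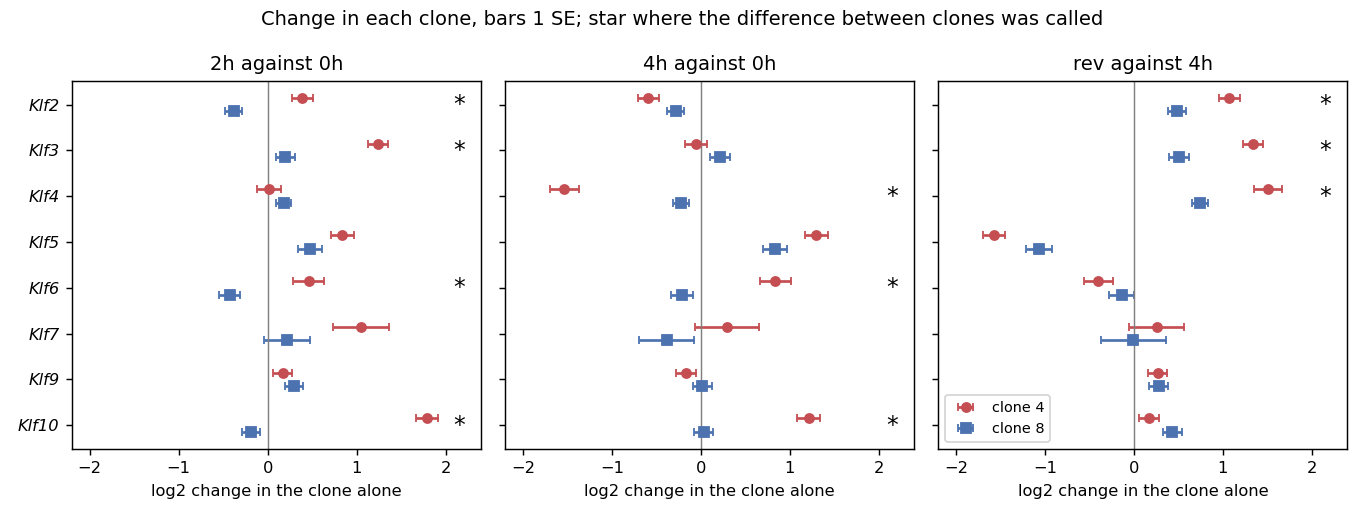
Log2 change of each KLF gene in clone 4 alone (circles) and clone 8 alone (squares), with bars of 1 SE; a star marks a difference between clones with an adjusted p under 0.05. Klf10 at 2h was 1.79 in clone 4 and -0.19 in clone 8, whereas both clones of Klf5 lay on the same side of 0 in all 3 panels.

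A ratio of 2 genes in the same library does not depend on scaling. The log2 ratio of Klf5 to Klf4 counts was -0.02 and -0.04 in clone 4 and -0.59 and -0.25 in clone 8 at 0h, and 0.86 and 0.74 in clone 4 and -0.14 and -0.11 in clone 8 at 2h. At 4h it was 3.03 and 2.503 in clone 4 and 0.46 and 0.81 in clone 8. It lay above all libraries of 0h and rev and overlapped those of 2h. At rev it was -0.04 and -0.52 in clone 4 and -0.88 and -1.42 in clone 8. The mean over 4 libraries was thus -0.22 ± 0.265 (SD, n = 4) at 0h, 1.70 ± 1.26 at 4h and -0.71 ± 0.583 at rev. Against Klf2 the mean log2 ratio of Klf5 was -1.14 ± 0.234 at 0h, -0.49 ± 0.435 at 2h, 0.36 ± 0.307 at 4h and -1.73 ± 0.454 at rev. All 4h libraries lay above those of 0h and rev, and their range overlapped that of 2h. The ratio of Klf5 to Klf3 at 4h was the same in both clones, 1.45 and 1.39 on average, and at 2h it was -0.30 in clone 4 and 1.06 in clone 8. These counts are not per length, so the ratios serve to compare libraries and not the genes.

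**Figure D4:**
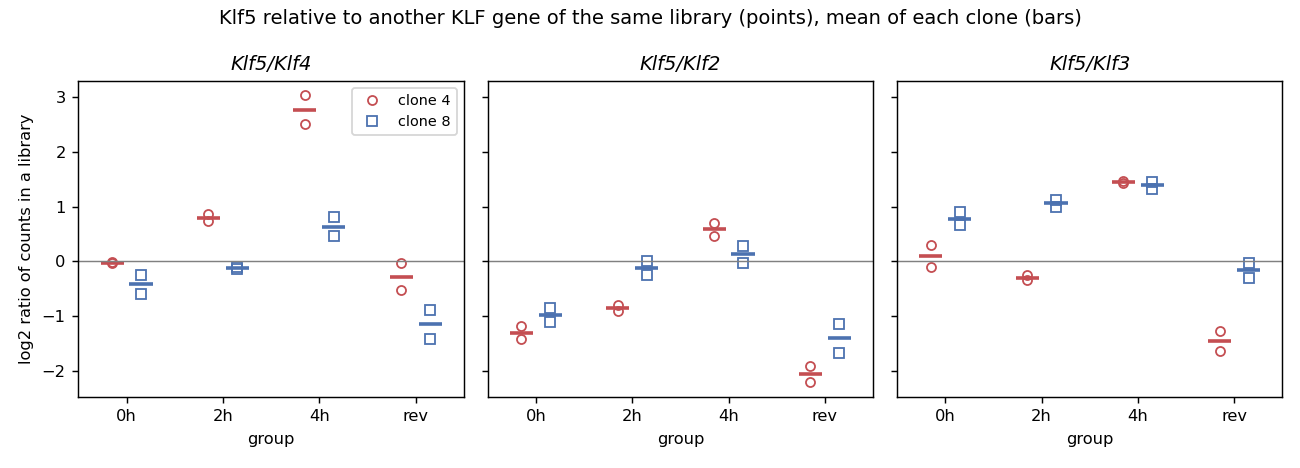
Log2 ratio of Klf5 counts to those of Klf4, Klf2 or Klf3 in the same library, by group; circles are clone 4, squares clone 8, bars the mean of each clone and the line at 0 equal counts. For Klf4 and Klf2 the 4h libraries were above those of 0h and rev and overlapped those of 2h. Klf5 over Klf4 at 4h was 2.77 on average in clone 4 and 0.64 in clone 8.

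Among the other 18 KLF and SP genes in the table, 10 passed the filter on counts. At 2h against 0h, 2 of 10 were higher, Sp4 by 0.87 (edgeR adjusted p 0.00847) and Sp1 by 0.38 (adjusted p 0.00949), and 1 was lower, Klf15, by -1.52 (adjusted p 0.00539) from a mean of 5.24 CPM at 0h. Klf8, a CtBP-recruiting relative of Klf3, was lower at 4h against 0h (-0.70, adjusted p 0.0286) and higher at rev against 4h (0.94, adjusted p 0.00581), the same directions as the log2 changes of Klf4. Sp1, a broadly expressed GC-box activator, was 0.33 higher at 4h as well. The counts at 4h against 0h were 1 higher and 1 lower, at 4h against 2h 0 higher and 1 lower (Sp4, -0.84), and at rev against 4h 2 higher and 0 lower. Of all tested genes, 9.49% were higher and 7.48% lower at 2h, and 7.35% and 5.56% at 4h against 0h. These shares were 5.78% and 6.36% at 4h against 2h, 4.5% and 5.1% at rev against 4h, and 5.51% and 4.94% at rev against 0h. At rev against 0h, Klf12 was higher (1.33, adjusted p 0.0294) and Klf15 lower (-1.25, adjusted p 0.0301). Klf12 was near the floor, with a mean of 0.786 CPM at 0h and at most 34 counts in any library. The median log2 change of the 10 genes was 0.18 at 2h, -0.05 at 4h against 0h and 0.30 at rev against 4h. Klf14, Klf17 and Sp5 to Sp9 had at most 7 counts in any library.

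Of 12 partners of the KLFs in the pluripotency network, 4 were higher and 1 lower at 2h, and 2 higher and 3 lower at 4h against 0h. The shares of all tested genes were 9.49% higher and 7.48% lower at 2h, and 7.35% and 5.56% at 4h. Nanog, a core homeodomain factor, was lower at 4h (-0.75, edgeR adjusted p 0.0049) and higher at rev against 4h (1.08, adjusted p 0.000308), and Prdm14, a repressor of FGF signalling, likewise (-1.12 and 0.94). Tfcp2l1, a LIF target of the naive state, was lower at 4h (-0.50, adjusted p 0.046) and higher at rev against 4h (0.69, adjusted p 0.00967). Gbx2, a homeobox gene, rose at 4h by 2.66 (adjusted p 0.000123) and fell from 4h to rev by 3.03 (adjusted p 6.38e-05), and Nr0b1 rose at 4h by 0.74 and fell by 0.44. At rev against 4h, 4 of the 12 were higher and 2 lower (4.5% and 5.1% of all tested genes). At rev against 0h 0 were called, where 5.51% of all tested genes were higher and 4.94% lower. Without replicate 1 of clone 8 at rev, 1 was called there, Zfp42 (0.36, edgeR adjusted p 0.0206). The median log2 change of the 12 was -0.04 at 4h against 0h and 0.22 at rev against 4h. Tests of the clone difference called 5 of the 12 at 4h, where 5.72% of all tested genes differed. Each had the higher change in clone 8, among them Nanog (1.02, adjusted p 0.000308).

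The LIF pathway, which feeds Klf4 through STAT3, had 4 of 7 genes higher and 0 lower at 2h (9.49% and 7.48% of all tested genes). Socs3, the feedback inhibitor of the pathway, rose by 0.86 (edgeR adjusted p 0.000686), Jak1 by 0.58, Stat3 by 0.55 and the receptor gene Lifr by 0.45. At 4h against 0h 2 were higher (Jak1 and Socs3; 7.35% of all) and 1 was lower (Pim3, -0.46; 5.56%). From 2h to 4h, 0 were higher (5.78% of all) and 3 were lower (6.36%), Il6st by -0.54, Pim3 by -0.45 and Pim1 by -0.38. At rev against 4h 2 were higher (Socs3, 0.54, and Pim3, 0.54), where 4.5% of all were. At rev against 0h, 3 of 7 were higher (5.51% of all), Socs3 by 1.09 (adjusted p 0.000205). Of 6 TGF-beta genes, read beside Klf10, 3 were higher at 2h, led by the inhibitory Smad7 (1.68, adjusted p 0.00015), and Smad3 was lower (-0.58, adjusted p 0.0289). Smad7 was lower again at rev against 2h (-1.26, adjusted p 0.00716). Of 5 glucocorticoid-responsive genes, read beside Klf9, 0 were higher and 1, Fkbp5, was lower at 2h (-0.34, adjusted p 0.0409), and 0 were called at 4h against 0h or at rev against 4h. Fkbp5 was higher at 4h against 2h (0.51, adjusted p 0.00625), where Klf9 fell.

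Of 6 cofactors and turnover factors of KLF proteins, Ctbp2, a corepressor used by Klf3, was higher at 4h against 0h (0.52, edgeR adjusted p 0.000994) and lower at rev against 4h (-0.40, adjusted p 0.00971). Wwp1 and Btrc, ubiquitin ligase genes, were lower at 4h against 0h (-0.42, adjusted p 0.00634, and -0.70, adjusted p 0.00153), and Btrc was higher at rev against 4h (0.47, adjusted p 0.0304). Fbxw7, another ubiquitin ligase gene, was 0.54 higher at 2h and 0.43 higher at rev against 0h. Over the 7 lists that hold no cell markers, 33 of the 39 calls at rev held without replicate 1 of clone 8 at rev and 4 others were added. The 6 lost calls were those of Klf15 (-1.08), Jak1 (0.45) and Etv5 (0.35) at rev against 0h, of Nr0b1 (-0.42) and Btrc (0.44) at rev against 4h, and of Gbx2 at rev against 2h (-1.82). The 4 added were those of Zfp42 (0.42) and Klf12 (1.24) at rev against 4h, and of Zfp42 (0.36) and Sin3a (-0.28) at rev against 0h.

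For each gene the 3 genes of most similar pattern were taken from about 6500 with a mean of at least 10 CPM, by Pearson's r over the 16 libraries after the clone means were removed; these correlations describe libraries that share treatment groups and scaling. Klf4 was most like Nanog (r = 0.964), Uck2 (0.96) and Fgf4 (0.954), and Klf2 most like Hs6st1 (0.951), Susd2 (0.939) and Zmynd8 (0.932). Among the genes like Klf5 were Pitpnb (0.935) and Zfp36l2 (0.924), and Klf3 was most like Abcb1a (0.928), Rnf4 (0.923) and Pprc1 (0.921). Klf10 had Ppp1r10 at 0.909, Klf7 had Ccdc127 at 0.903, Klf9 had Tbx3 at 0.885 and Klf6 had Rapgef1 at 0.852. Among the KLF genes themselves, Klf2 and Klf4 had the highest r (0.836), Klf2 and Klf3 had 0.794, and the lowest was that of Klf4 and Klf5 (-0.666).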

How the data were processed

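The authors deposited whole-number read counts per Ensembl gene ID, raw and 1 column per library; per the submitters' processing notes, bcl2fastq 2.19.1 and STAR 2.5.3a and the build mm10 were used, and the counting program, annotation and strand setting are not given in the sources used here. Symbols, exon lengths and coordinates (1-based) come from GENCODE M21 on GRCm38 by gene ID. Genes were kept by filterByExpr by group (minimum count 10, minimum total 15), scaled by TMM and tested with edgeR 4.0.16 (R 4.3.3), two-sided quasi-likelihood, over all 16 libraries with group and clone in the model; clone differences used the 8 combinations of group and clone. P-values were adjusted by Benjamini-Hochberg over 12742 genes, and a gene was called under 0.05. Each clone was also fitted alone. CPM is relative to the kept genes; log2 CPM used a prior count of 2. DESeq2 1.42.0 was an alternative. The fit was tested on simulated data. No 2 libraries of one clone and group agreed within counting error (chi-square over its degrees of freedom was 1.3 to 4.16), and all were kept. A count of 3 was worth 0.21 to 0.908 CPM, and counting error covers reads, not molecules. From other lists, at most the 5 called genes of largest change per comparison were named; 1 gene of similar pattern is not reported here. The members, the lists and the tests were chosen with earlier results of these data known.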

Additional observations from a re-analysis of the deposited data

Results flagged for a closer look

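Klf2 at 0h had 1 library away from the others. Replicate 2 of clone 4 had 145 CPM against 158 to 159 CPM in the other 3, and on the log2 scale its gap was 0.906 of the group's range. Chance alone marks about 1 in 20 such groups. Without that library, the log2 change of Klf2 at 4h against 0h was -0.46 (adjusted p 0.0686).

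For the other 16 values, edgeR's test of the difference between clones, as the log2 change in clone 8 minus that in clone 4, passed the threshold. At 2h against 0h they were -0.78 for Klf2, -1.05 for Klf3, -0.89 for Klf6 and -1.99 for Klf10. At 4h against 0h they were 1.30 for Klf4, -1.06 for Klf6 and -1.19 for Klf10. Between 2h and 4h the values were 1.08 for Klf2, 1.32 for Klf3, 1.14 for Klf4 and 0.79 for Klf10; in clone 8 alone the log2 changes were 0.10, 0.02, -0.41 and 0.22. From 4h to rev they were -0.57 for Klf2, -0.82 for Klf3 and -0.76 for Klf4, and at rev against 0h -0.56 for Klf3 and -0.92 for Klf10. Comparisons that share a group share libraries, so these values are not independent of each other.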

How the results depend on the processing

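Alternatives changed scaling, filter, tool, threshold, model or libraries 1 at a time. No direction reversed with another scaling, filter, tool or left-out library among called results; in clone 8 alone the log2 change turned to -0.38 for Klf2, -0.43 for Klf6 and -0.19 for Klf10 at 2h against 0h and to 0.017 for Klf3 at 4h against 2h, and in clone 4 alone Klf10 at rev against 2h turned to -0.40. Numbers of KLF genes called follow. At 2h against 0h (3), 1 was called with no clone covariate and 5 in clone 4 alone. At 4h against 0h (2), 4 were called with no filter and with only the 2 groups compared, 5 in clone 4 alone, and 1 with an adjusted p under 0.01, with no clone covariate and in clone 8 alone. At 4h against 2h (4), 1 was called with library totals, with an adjusted p under 0.01 and in clone 8 alone, 0 with no clone covariate, and 1 to 5 with a library left out. At rev against 4h (5), 2 were called with library totals and with no clone covariate. At rev against 0h (2), 1 was called with library totals, with an adjusted p under 0.01 and with the replicate block, 0 with no clone covariate, and 1 to 2 with a library left out. At rev against 2h (1), 2 were called in clone 4 alone and with only the 2 groups compared, and 5 in clone 8 alone. Of clone differences, library totals called 1 at 2h against 0h, 1 at 4h against 0h, 0 at 4h against 2h, 0 at rev against 0h and 0 at 0h itself. DESeq2 and an adjusted p under 0.01 each called 1 at rev against 0h. With a library left out the counts were 1 to 4 at rev against 4h, 1 to 4 at rev against 0h and 1 to 3 at 0h itself. Lengths of the longest transcript kept 3 of 8 places in the order at 0h. The cause of these shifts was not tested.

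Library totals moved the median of all genes to 0.11 at 2h against 0h, -0.14 at 4h against 2h, -0.20 at rev against 4h, -0.24 at rev against 0h and -0.35 at rev against 2h, and called 348 genes higher and 98 lower at 2h against 0h (main 1209 and 953), 328 and 180 at 4h against 0h (936 and 709), 84 and 446 at rev against 4h (574 and 650), 106 and 343 at rev against 0h (702 and 630), 148 and 237 at 4h against 2h (737 and 810) and 13 and 144 at rev against 2h (98 and 129). Libraries of a clone with the same number did not deviate together (r -0.133 to 0.119 over 12 pairs of groups). No pairing by number was seen, but these values cannot show whether such libraries shared a culture. Besides the block values given for Klf10, the replicate block ended the call of Klf7 at 4h against 2h (-0.68, adjusted p 0.0653) and no other. Klf7, at 7 to 51 counts, is limited by depth.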
